A study of Mus musculus with 7 samples.

Results

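The constant genes of the antibody loci, with the joining chain gene, were followed across cell types of mouse livers carrying induced tumours. The set held 10 genes of the 55357 features in the count tables, found by symbol: the heavy chain genes Ighm, Ighd, Ighg1, Ighg2b, Ighg2c, Ighg3 and Igha, the light chain genes Igkc and Iglc2, and Jchain. They were read as raw molecule counts (UMIs, unique molecular identifiers) in B cells, in plasma cells, and as free RNA in cells that do not make antibody. Free RNA is RNA from broken cells that enters the droplets of other cells.

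Single cells of HCC tissue (hepatocellular carcinoma) from 7 mouse samples had been profiled with 10x 3′ v3.1 libraries. All 7 had received plasmids for Nras and C-myc, a pair of oncogenes, by hydrodynamic tail vein injection, a rapid injection of a large volume into the tail vein from which hepatocytes take up the DNA, and all were taken 2 weeks later. The 4 treated samples had received an IL-2/CD25 plasmid as well, and the 3 controls had not. Strain, age and sex were not in the labels used here, nor whether samples came from separate animals, so p-values measure the spread between these samples, which may be technical.

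After filters, 57739 cells remained, 6834 to 8789 in control samples and 6823 to 9551 in treated samples. Median depth per kept cell was 5538 to 8126 UMIs in control samples and 3091 to 4366 in treated samples. In gated B cells depth ran the other way. It was 1854, 2446 and 1743 UMIs in control samples and 3025, 2904, 2490.5 and 2633 in treated samples. Pairs of libraries shared 10 to 33 cell barcodes, at most 0.375% of the smaller library. Control 2 stood apart from the other 6 samples: it held 0 gated plasma cells, and the calls that change without it are named beside their results.

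An antibody is built of heavy and light chains. A resting B cell splices its rearranged heavy chain transcript to the mu gene Ighm or the delta gene Ighd, so that IgM and IgD share the cell surface. Class switching replaces mu by a downstream gene, Ighg1, Ighg2b, Ighg2c or Ighg3 for IgG or Igha for IgA, and a B cell that becomes a plasma cell secretes large amounts of antibody. Jchain encodes the protein that links IgM and IgA into polymers. In mouse, most light chains are kappa, from Igkc, and the rest are lambda, from Iglc1, Iglc2 or Iglc3. The heavy chain locus can also be transcribed without a rearranged V gene, and such germline mu transcripts are known from mouse T cells; reads from the 3′ end do not separate them from antibody mRNA.

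In the GENCODE M21 annotation of GRCm38 the heavy chain genes run along the minus strand of chromosome 12, from Ighm at 113418558 to 113422730, through Ighd at 113406604 to 113416324, to Igha at 113254830 to 113260236. Igkc lies on the plus strand of chromosome 6 at 70726435 to 70726966, Iglc2 on the minus strand of chromosome 16 at 19198396 to 19200351, and Jchain on the minus strand of chromosome 5 at 88519809 to 88527891. The build behind the counts is not given in the sources used here, and these positions come from the reference alone.

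Of the lambda genes, Iglc3 is a near-copy of Iglc2 and Iglc1 is less alike, which bears on how far Iglc2 counts can be taken. The last 120 coding bases of the 3 genes, from the GENCODE M21 transcripts, are printed for that reason, with bases that differ from Iglc2 in capitals. They lie on the minus strand of GRCm38 at chr16:19198539-19198658 (Iglc2), chr16:19065368-19065487 (Iglc3) and chr16:19061755-19061874 (Iglc1).
Iglc2: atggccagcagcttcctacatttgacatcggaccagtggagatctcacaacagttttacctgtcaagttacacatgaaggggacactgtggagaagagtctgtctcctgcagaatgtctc
Iglc3: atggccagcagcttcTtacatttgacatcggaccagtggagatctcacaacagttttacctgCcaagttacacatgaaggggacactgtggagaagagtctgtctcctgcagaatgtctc
Iglc1: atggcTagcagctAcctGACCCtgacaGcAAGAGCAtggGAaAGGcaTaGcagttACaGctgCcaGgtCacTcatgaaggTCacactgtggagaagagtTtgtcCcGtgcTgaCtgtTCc
Iglc3 differed from Iglc2 at 2 of these bases and Iglc1 at 38. Of the 562 words of 50 bases in the Iglc2 transcripts, 43 (7.65%) also occurred in Iglc3. Ighg2b and Ighg2c shared 70 words, 2.66% of those of Ighg2b, while Ighm, Ighd, Igha, Igkc and Jchain shared none with another gene tested. Values of Iglc2, Ighg2b and Ighg2c are therefore uncertain to the extent that reads in shared stretches were dropped or split.

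B cells were gated on B cell genes that included Cd79a, Cd79b and Ms4a1, with no antibody gene except an upper limit of 10 Jchain UMIs. The gate held 195, 71 and 232 cells in control samples and 449, 1286, 1358 and 574 in treated samples. As a share of kept cells this was 2.05% ± 0.933 (SD, n = 3) against 10.6% ± 5.05 (SD, n = 4). Every treated sample lay above every control, and the difference was not called (exact two-sided permutation p = 0.0857, adjusted p = 0.154 over 9 measures).

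Within B cells, Ighm, Ighd and Iglc2 were higher in treated samples, Igkc was not called, and the switched heavy chain genes had at most 123 UMIs in any sample. Of the 10 genes 6 passed the filter on low counts, and 3 of these 6 were called higher and 0 lower by edgeR's quasi-likelihood test at an adjusted p of 0.05. Among all 9487 genes tested, 7.56% were called higher, 11.1% lower and 18.7% in either direction. The median log2 change was 0.27 over the 6 members and 0.0047 over all genes.

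Ighm, the mu chain, stood at 3503, 4108 and 3254 CPM (UMIs of a gene scaled to a fixed total of all UMIs in the gated cells) in controls 1 to 3 and at 4589, 4880, 4836 and 4904 CPM in treated samples 1 to 4. The groups did not overlap, and the treated samples lay close together. The fitted log2 change was 0.30 (SE 0.098, adjusted p = 0.0344).

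Ighd, the delta chain of mature naive B cells, stood at 1260, 1208 and 1230 CPM in control samples and 1470, 1644, 1565 and 1743 CPM in treated samples. The groups did not overlap here either, and the log2 change was 0.27 (SE 0.094, adjusted p = 0.0479). The balance between both spliced products did not differ beyond the spread: Ighd made up 25.5% ± 2.48 of Ighm plus Ighd UMIs in control samples and 25.0% ± 0.890 in treated samples (exact permutation p = 0.714, adjusted p = 0.804).

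Iglc2, a lambda chain gene, stood at 734, 743 and 702 CPM in control samples and 1195, 1208, 1040 and 1235 CPM in treated samples. All controls lay well below all treated samples, and the log2 change of 0.58 (SE 0.10, adjusted p = 0.000264) was the largest among the called members. Igkc, the kappa chain, stood at 5704, 5008 and 6199 CPM against 7462, 7104, 6707 and 8048 CPM, also without overlap, and missed the threshold (log2 change 0.27, SE 0.11, adjusted p = 0.0909).

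**Figure D1:**
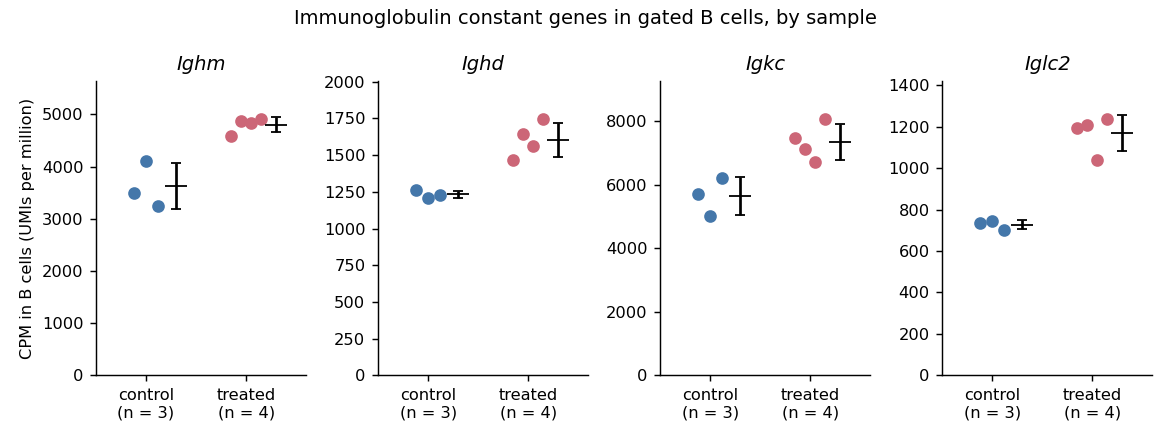
CPM of Ighm, Ighd, Igkc and Iglc2 in gated B cells, 1 point per sample, with the group mean and SD as black marks (3 controls, 4 treated, axes from 0). Iglc2 shows the largest relative difference of the 4 genes, 702 to 743 CPM in control samples against 1040 to 1235 CPM in treated samples.

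Free RNA moved with the groups in these cells. By 10 marker genes of other cell types (9 in treated 4) it was estimated at 11.6%, 8.23% and 14.4% of B cell UMIs in control samples and at 3.55% to 5.50% in treated samples. Cd3e, Krt18, Csf3r and Ncr1 among these markers also belong to the lists that the B cell gate excludes. Their levels in B cells are in part set by the gate, and its part in the estimate was not tested. After subtracting free RNA, an alternative chosen after seeing the data, Iglc2 was still called (log2 change 0.47, adjusted p = 0.00325), while Ighm (0.20, adjusted p = 0.204) and Ighd (0.16, adjusted p = 0.320) were not. The Ighm call was also lost when any sample other than control 2 was left out, and the Ighd call was lost when any of the 7 was left out. Iglc2 was called in all 7 of these fits. Without control 3 Igkc was called higher as well (log2 change 0.38, adjusted p = 0.0334).

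Switched antibody was rare among B cells. Class-switched cells, with at least 3 UMIs of Ighg or Igha genes and more of these than of Ighm plus Ighd, numbered 1, 1 and 0 in control samples and 1, 0, 1 and 0 in treated samples. Their share was 0.640% ± 0.713 against 0.0741% ± 0.105 (exact permutation p = 0.143, adjusted p = 0.214). The difference of -0.566 percentage points was -0.182 without control 2, where 1 of 71 cells was switched. Of the 4 cells, 1 each was led by Ighg2c, Ighg2b, Igha and Ighg1.

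Igha, the IgA chain, stood at 36.7, 0 and 31.6 CPM in B cells of the controls and 11.97, 14.4, 35.1 and 8.81 CPM in treated samples, with a log2 change of -0.57 (SE 0.56, adjusted p = 0.537). Ighg2b stood at 14.7, 53.7 and 13.5 CPM against 0, 1.86, 14.5 and 4.41 CPM (log2 change -1.99, SE 0.78, adjusted p = 0.0851), and in control 2 it came from 12 UMIs. Without treated 3 Ighg2b was called lower (adjusted p = 0.000891). Ighg1, Ighg2c, Ighg3 and Jchain did not pass the filter. Ighg1 had 1 UMI in all controls together and 9 in treated samples, all in treated 3. Ighg2c had 7, 0 and 2 UMIs in control samples and 0 in treated samples, Ighg3 had 0, 6 and 0 against 2, 2, 1 and 3, and Jchain had 2, 0 and 2 against 2, 11, 20 and 6.

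Nearly every B cell carried Ighm. At least 1 Ighm UMI was seen in 98.6% to 100% of B cells in each control and 99.3% to 100% in each treated sample. To compare Ighd at equal depth, each cell was thinned to 1000 UMIs. Ighd was then seen in 73.1%, 74.6% and 67.8% of cells in control samples and 73.9%, 76.5%, 76.5% and 80.3% in treated samples, and without thinning in 90.3%, 91.5% and 82.3% against 93.9% to 96.5%. The thinned shares overlapped, with means of 71.8% ± 3.57 and 76.8% ± 2.65 (exact permutation p = 0.0857, adjusted p = 0.154). The expected share over all possible draws, an alternative added after seeing the data, was 68.0% ± 3.93 against 76.9% ± 2.33, without overlap (exact permutation p = 0.0286).

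Many B cells held both kappa and lambda UMIs. Iglc2 made up 11.4%, 12.9% and 10.2% of Igkc plus Iglc2 UMIs in B cells of the controls and 13.8%, 14.5%, 13.4% and 13.3% in treated samples. All treated samples lay above all controls (exact permutation p = 0.0286, the smallest that 35 splits can give), and the adjusted p over 9 measures was 0.0857. Among cells with enough light chain UMIs, those with at least 3 Iglc2 UMIs and more Iglc2 than Igkc made up 2.69%, 2.86% and 2.75% of B cells in control samples and 4.50%, 4.65%, 3.91% and 3.89% in treated samples, again without overlap and with the same p-values. With a stricter gate this difference went from 1.47 to 0.709 percentage points (adjusted p = 0.643). Iglc1, Iglc2 and Iglc3 were then counted together as lambda, in B cells with at least 3 light chain UMIs. Of these 66.7% to 71.4% in control samples and 76.9% to 80.7% in treated samples held neither 90% kappa nor 90% lambda UMIs. These shares, and the share with more Iglc2 than Igkc, were not thinned to equal depth. The median B cell held 10 Igkc UMIs in each control and 16 to 22 in treated samples. The part of depth in these differences was not tested.

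Other genes of B cell identity were called in the same cells. In the list of follicular and transitional B cell genes, which includes Ighd, 8 of 10 tested genes were called higher and 0 lower, with a median log2 change of 1.19. Among them were Fcer2a (194 ± 44.5 against 593 ± 37.8 CPM, log2 change 1.46), the IgE receptor CD23 of follicular B cells, and Cxcr5 (64.3 ± 12.6 against 181 ± 28.8 CPM, log2 change 1.35), the chemokine receptor that leads B cells into follicles. Ccr7 (291 ± 46.9 against 736 ± 152 CPM, log2 change 1.24) and Cd55 (310.1 ± 109 against 834 ± 48.2 CPM, log2 change 1.25), a homing receptor and a complement inhibitor, were called higher too. Cd93 and Vpreb3, genes of transitional cells, were not called, at adjusted p = 0.162 and 0.901. With free RNA subtracted, 6 of the 10 were called higher.

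Of the marginal zone and B1 list 6 of 9 genes were tested, and Cd9 (log2 change -1.95) and Plscr1 (-2.84) were called lower and 0 higher. With free RNA subtracted Cd9 was no longer called (-1.44, adjusted p = 0.217) and Plscr1 was (-2.76, adjusted p = 0.0044). Among germinal centre and switching genes 4 of 9 were tested. Bcl6, the germinal centre repressor, was called higher (log2 change 1.20) and Apex1, a DNA repair enzyme, lower (-1.32).

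In the list of transcription factors acting on the antibody loci, 7 of 10 genes were called higher and 1 lower, with a median log2 change of 0.55, and the counts were the same with free RNA subtracted. Bach2 (193 ± 6.54 against 435 ± 84.4 CPM, log2 change 1.08), which holds back plasma cell fate, and Pax5 (366 ± 57.0 against 793 ± 64.4 CPM, 1.02), the B lineage factor, were called higher. Ikzf3 (0.94) and Pou2f2 (0.72), which encodes the octamer factor Oct2 that binds antibody promoters, were called higher as well. The gene called lower was Pou2af1 (549.5 ± 22.5 against 436 ± 16.6 CPM, log2 change -0.44), the partner protein of Oct1 and Oct2.

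The plasma programme did not move 1 way. Of 12 genes 9 were tested, with 2 called higher, Irf4 (1.25) and Txndc5 (0.86), and 3 lower, Fkbp11 (-1.84), Xbp1 (-0.64) and Hsp90b1 (-0.50). After subtraction of free RNA 2 were called higher and 0 lower, and Xbp1 (0.14) and Fkbp11 (1.00) had the opposite sign without being called. Among receptor genes and antibody partners, 4 of 12 were called higher and 1 lower, and 3 and 1 with free RNA subtracted. Fcmr, the receptor for IgM, stood at 439 ± 64.0 CPM against 739 ± 56.3 CPM (log2 change 0.62), Cr2 rose by 1.20, and Cd22 rose by 0.50. Fcgr2b, the inhibitory IgG receptor, was called lower (-1.04). Cd79a (0.07) and Cd79b (0.12), the signalling partners of membrane antibody, belong to the gate, so their levels are in part set by it.

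Among activation genes 8 of 10 were tested, with Il2rb (3.38), Nr4a1 (1.46) and Cd86 (1.30) called higher and Myc (-1.30) and Egr1 (-1.13) lower. With free RNA subtracted 7 were tested, with Nr4a1 and Cd86 called higher and Egr1 lower, Myc was not called and had the opposite sign (0.52, adjusted p = 0.484), and Il2rb was not among the tested genes. Il2rb encodes the interleukin 2 receptor beta chain, and it stood at 3.88 ± 1.42 CPM in control samples and 44.3 ± 16.01 CPM in treated samples. Nkg7, an NK cell gene, stood at 0 to 4.89 CPM in control B cells and 38.7 to 90.1 CPM in treated B cells, and its part in the Il2rb value was not tested. S100a8, of neutrophils, ran the other way, at 510.2 to 854 CPM against 48.6 to 78.7 CPM. Of the other antibody constant genes Iglc3 was called higher (log2 change 0.44, adjusted p = 0.00996) and Iglc1 was not (0.21, adjusted p = 0.395). The Iglc3 call was lost with free RNA subtracted (0.33, adjusted p = 0.0826).

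Plasma cells were defined by at least 10 Jchain UMIs with at least 2 genes of the secretory programme. The threshold fell in an empty range: of the kept cells 1147 held 1 or 2 Jchain UMIs, 8 held 3 or 4, 0 held 5 to 19, 3 held 20 to 99 and 58 held 100 or more. The gate kept 51 cells, with 17, 0 and 15 in control samples and 4, 5, 8 and 2 in treated samples. The share of kept cells was 0.127% ± 0.110 against 0.0562% ± 0.026, and the groups overlapped (exact permutation p = 0.257, adjusted p = 0.331). In control 2, 0 of 6834 cells allows a share of up to 0.0439%, counting error only.

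The gate dropped cells with more than 1 UMI of the markers of T cells, NK cells or plasmacytoid dendritic cells (pDC). Without that limit there were 61 cells, 18, 1 and 16 in control samples and 4, 6, 11 and 5 in treated samples.

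Most gated plasma cells were led by Igha. The gate required at least 10 Jchain UMIs, so plasma cells with fewer were not counted. The part of this limit in the isotype counts was not tested. By the heavy chain gene with the most UMIs, Igha led in 34 of the 51 cells, Ighg2b in 9, Ighm in 7 and Ighg2c in 1, and Ighd, Ighg1 and Ighg3 led in 0. Igha led in 23 of 32 control cells, all from controls 1 and 3, and in 11 of 19 treated cells. All 6 samples that had plasma cells held at least 1 cell led by Igha. In treated 1 these were 1 of 4 cells, and in treated 3 they were 4 of 8. Ighm led in 3 control cells and 4 treated cells, 3 of the latter in treated 1, and Ighg2b led in 5 control cells and in 4 treated cells, all 4 in treated 3. In the wider gate of 61 cells Ighm led in 7 treated cells, 2 of them in treated 4, Ighg2b led in 1 cell of treated 4 as well, and the cell of control 2 was led by Ighm. The cells are too few per sample for a test, and cells of 1 sample may descend from 1 clone.

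**Figure D2:**
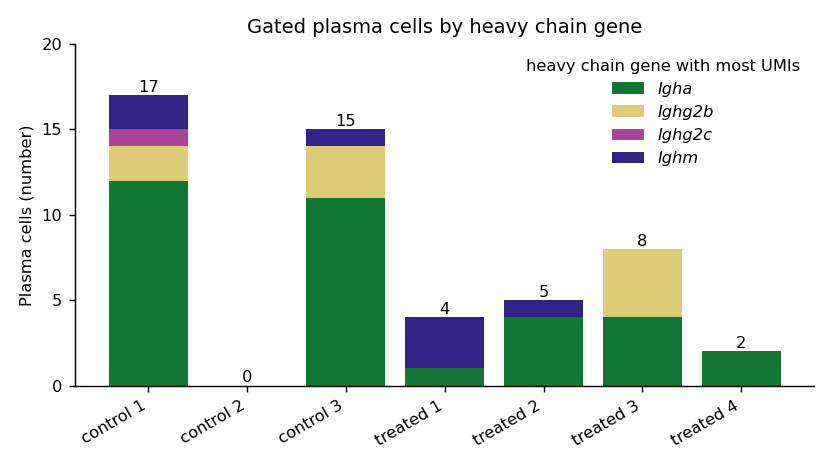
Number of gated plasma cells in each sample, stacked by the heavy chain gene with the most UMIs; the number over each bar is its total. Igha leads in most cells of controls 1 and 3, and control 2 has none.

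Each plasma cell held UMIs of mainly 1 heavy chain. The leading gene held a median of 99.9% of the cell's heavy chain UMIs, and at least 90% in all 51 cells. The 10 genes together made up a median of 24.4% of a cell's UMIs, from 4.19% to 62.7%. The 7 cells led by Ighm had a median of 46.3%, against 23.3% in the 34 led by Igha and 24.4% in the 9 led by Ighg2b. Jchain counts ran from 36 to 1255 UMIs per cell, with medians of 429 in Ighm cells, 390 in Igha cells and 222 in Ighg2b cells. Summed over cells, Jchain was 25671 CPM in Ighm cells, 21670 CPM in Igha cells and 11182 CPM in Ighg2b cells, a gene that the gate itself required. Kappa made up at least 90% of light chain UMIs in 43 of 51 cells and under 10% in 3.

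**Figure D3:**
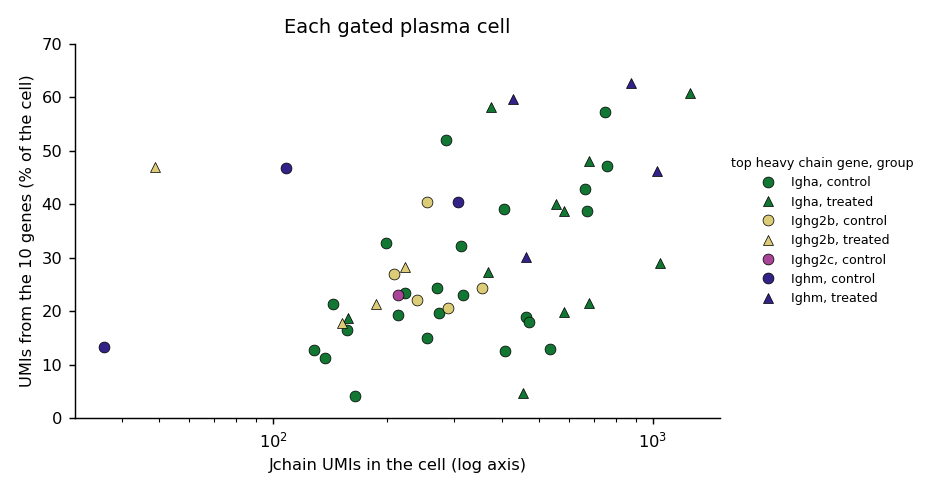
Each of the 51 gated plasma cells by its Jchain UMIs (log axis) and the share of its UMIs from the 10 genes, with colour for the leading heavy chain gene and shape for the group. Jchain runs from 36 to 1255 UMIs and the share from 4.19% to 62.7%.

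Per sample, the plasma cell sums varied widely with the few cells they came from. Igkc stood at 146642 and 142439 CPM in controls 1 and 3 and at 259075, 153508, 202597 and 105028 CPM in treated samples, and the groups overlapped. Igha stood at 49346 and 50494 CPM against 12984, 61277, 91348 and 62416 CPM, with treated 1 the lowest. Ighm was 6597 and 8748 CPM against 148077, 32266, 637 and 38.5 CPM. Ighd reached at most 6 UMIs in any sample's plasma cells. Jchain, which the gate used, was 13924 and 16195 CPM against 27711 to 32840 CPM.

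These few cells held much of the antibody RNA of a sample. The 32 control plasma cells held 88.0% of all control Igha UMIs, 77.9% of Igkc UMIs and 79.5% of Ighg2b UMIs, while B cells held 4.86% of Igkc and 0.0747% of Igha. In the treated samples the 19 plasma cells held 77.2% of Igha, 35.3% of Igkc and 55.0% of Ighg2b UMIs, and B cells held 40.9% of Igkc. These shares depend on the gate: with the wider gate plasma cells held 88.1% of control and 93.8% of treated Igha UMIs, 84.2% and 53.0% of Igkc UMIs, and 90.1% and 93.6% of Ighg2b UMIs. Ighd lay in B cells, 70% of its UMIs in control samples and 91.4% in treated samples. Ighm was spread more widely: in treated samples 43.0% of its UMIs lay in B cells, 13.3% in plasma cells, 11.6% in T cells and 5.69% in NK cells. A further 21.2% of treated Ighm UMIs lay in cells that no gate took.

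Over all other cells with at most 1 UMI of the B cell genes, the 10 genes gave 1.38, 0.260 and 0.704 UMIs per 10000 in control samples and 3.19, 4.53, 4.90 and 3.70 in treated samples. All treated samples lay above all controls (exact permutation p = 0.0286, adjusted p = 0.0857). As a share of all UMIs of the 10 genes, all cells outside both gates held 29.8% ± 19.8 against 30.5% ± 18.6 (exact permutation p = 0.914, adjusted p = 0.914). With the wider plasma gate that share ran from 10.7% to 42.1% in control samples and from 12.3% to 21.4% in treated samples.

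Tumour cells and hepatocytes, gated on Krt18, Apoc3 and Cps1, are not antibody-making cells and served as a measure of background. Igkc stood there at 59.5, 1.11 and 35.1 CPM in control samples and 35.4, 89.6, 82.6 and 26.3 CPM in treated samples, the last from 1 UMI in 15 cells. Control 2, the sample with no gated plasma cell, was the lowest. It was also lowest in monocytes and macrophages, with 66.4, 2.41 and 38.3 CPM in control samples against 61.9 to 144 CPM in treated samples, and in neutrophils, with 76.8, 2.77 and 47.9 CPM against 41.3 to 119 CPM. Igkc was not called in monocytes and macrophages (log2 change 1.16, adjusted p = 0.199) or in neutrophils (0.67, adjusted p = 0.517). Without control 2 these changes were 0.60 and 0.12, without control 1 they were 2.00 and 1.36, and in neutrophils without treated 3 the change was 0.38, again not called.

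Igha in these cells was set beside the plasma cells of the same sample. In tumour cells and hepatocytes Igha stood at 26.9, 0.124 and 13.6 CPM in control samples and 3.32, 6.4, 25.9 and 0 CPM in treated samples, with treated 3, the sample with the most treated plasma cells, the highest of the 4. Set against Igkc, control 1 had 0.452 Igha UMIs per Igkc UMI in tumour cells and hepatocytes, 0.407 in neutrophils and 0.337 in plasma cells. In control 3 the same ratios were 0.387, 0.343 and 0.354. Treated 2 had 0.0714 in tumour cells and hepatocytes, 0.111 in neutrophils and 0.399 in plasma cells. Treated 1 had 0.0938, 0.12 and 0.0501, treated 3 had 0.314, 0.303 and 0.451, and treated 4 had 0, 0.0541 and 0.594. In tumour cells and hepatocytes of treated samples 1 to 4 these came from 3, 2, 32 and 0 Igha UMIs. The Igkc UMIs beside them were 32, 28, 102 and 1. Differences between gates in these ratios were not tested. B cells of controls 1 and 3 had 0.00643 and 0.0051.

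The ratio of Ighm to Igkc differed between cell types. In tumour cells and hepatocytes there were 0.119 and 0.225 Ighm UMIs per Igkc UMI in controls 1 and 3, and 0.441 to 0.563 in treated samples 1 to 3. In T cells the ratio was 1.30, 5.66 and 2.18 in control samples and 10.4, 5.80, 4.03 and 9.01 in treated samples. In NK cells of the treated samples it was 3.79, 2.18, 1.44 and 3.51, while B cells ran from 0.525 to 0.820 over all 7 samples. Over all kept cells together it was 0.0919 and 0.115 in controls 1 and 3, 1.71 in control 2 and 0.412 to 0.813 in treated samples.

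**Figure D4:**
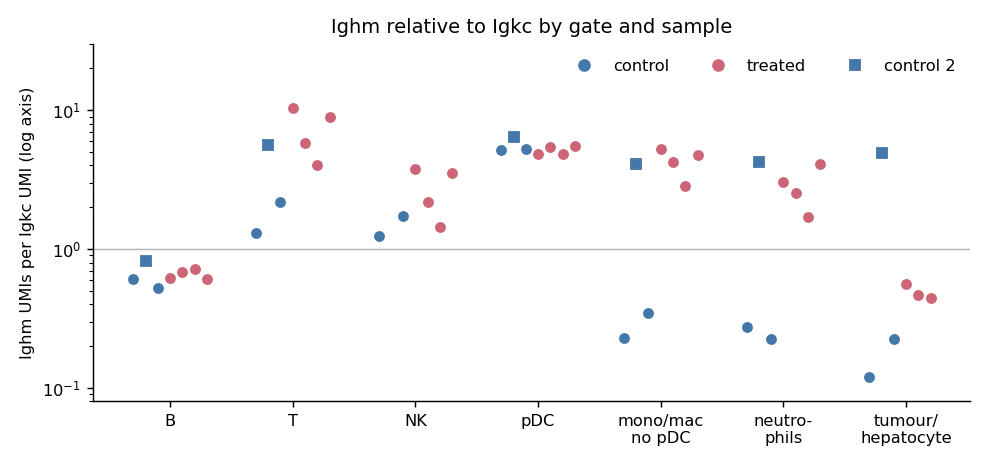
Ighm UMIs per Igkc UMI (log axis) by gate, 1 point per sample with at least 5 Igkc UMIs, control 2 as squares; the line marks a ratio of 1. B cells lie below 1 in all 7 samples, T cells and pDC-marked cells above 1, and tumour cells and hepatocytes below 1 except in control 2.

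T cells carried Ighm at a higher level in treated samples. Ighm stood at 124, 217 and 106 CPM in control samples and 363, 382, 371 and 403 CPM in treated samples. The groups did not overlap, and the log2 change was 1.25 (SE 0.18, adjusted p = 0.000259). Of 7 members tested in T cells 3 were called higher and 0 lower, beside 24.8% of 13298 genes called higher, 27.2% lower and 52% in either direction. After removing T cells with any UMI of the B cell genes Ighm was still called (log2 change 1.28, adjusted p = 8.98e-05).

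At equal depth, 13.7%, 16.04% and 12.3% of control T cells and 25.3%, 27.9%, 27.8% and 27.7% of treated T cells would hold an Ighm UMI among 1000 UMIs drawn. The same share in tumour cells and hepatocytes was 0.421% to 1.44% in control samples and 2.09% to 4.00% in treated samples 1 to 3. Without thinning the shares were 45.4% to 51.6% against 63.6% to 66.6% in T cells, at median depths of 4441 to 5203 and 3630 to 4657 UMIs. In tumour cells and hepatocytes they were 8.24% to 16.7% in control samples, at median depths of 8827 to 13964 UMIs.

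The other members in T cells had few UMIs. Ighd had 5, 6 and 4 UMIs in control samples (2.09 to 7.2 CPM) and 40, 132, 103 and 109 in treated samples (4.64 to 16.7 CPM). The ranges overlapped, it was called higher (log2 change 1.69, SE 0.60, adjusted p = 0.0357), and the call was lost without control 1, without control 3, without treated 2, without treated 3 or after removing T cells with a UMI of the B cell genes. Iglc2 had 0 UMIs among 5102030 in the control T cells and 24, 52, 44 and 44 in treated samples. Taking 3 counts for all control T cells together as the floor, 0.588 CPM, the pooled treated level of 4.66 CPM was at least 7.92-fold higher (adjusted p = 0.00186). Igkc (log2 change -0.29), Igha (-0.99), Ighg2b (-1.38) and Jchain (0.04) were not called. Without treated 3 Igha (-1.99) and Ighg2b (-3.13) were called lower.

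NK cells held less Ighm and a smaller difference. Ighm stood at 112, 117 and 85.8 CPM in control samples and 142, 151, 139 and 140.4 CPM in treated samples, without overlap. The log2 change was 0.32 (SE 0.12, adjusted p = 0.0498), and the call was lost without any sample other than control 2. Of 7 members tested 2 were called higher and 0 lower, beside 17.6% of 13099 genes called higher, 17.5% lower and 35.1% in either direction. The other was Iglc2, with 0 UMIs among 1971606 in control samples and 269 in treated samples, which is at least 3.84-fold higher when the same floor is taken over the control NK cells (adjusted p = 0.0251). That call was lost without control 1 or control 2.

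Of the 5 gates tested, monocytes and macrophages showed the largest Ighm change, and their gate in treated samples also held cells with markers of other types. Ighm stood at 18.1, 12.4 and 17.7 CPM in control samples and 337, 591, 588 and 406 CPM in treated samples, a log2 change of 4.67 (SE 0.24, adjusted p = 6.76e-07). Of 6 members tested 3 were called higher, Ighm, Ighd and Iglc2, and 0 lower, beside 29.9% of 11498 genes called higher, 31.7% lower and 61.7% in either direction. The 3 pDC marker genes, Siglech, Cox6a2 and Klk1, summed to a mean of 0.195 to 0.269 UMIs per cell in control samples and 7.62 to 14.6 in treated samples. T cell markers summed to a mean of 0.0363 to 0.0820 UMIs in control samples and 0.223 to 0.734 in treated samples. For NK cell markers the means were 0.0244 to 0.0503 in control samples and 0.221 to 0.621 in treated samples. Plasmacytoid dendritic cells make interferon and are known in mouse to carry partial rearrangements of the heavy chain locus.

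Cells with pDC markers were looked at alone and were also left out, both chosen after the values were seen. Without cells of more than 1 pDC marker UMI, Ighm was 15.2, 9.27 and 13.1 CPM against 194, 259.9, 245 and 215 CPM. It was still called, with a log2 change of 4.05 (adjusted p = 1.75e-07). Cells with some T or NK marker UMIs stayed in, and their part in the Ighm value was not tested. Ighd was called in them as well, in a gate where the main fit called 61.7% of all genes. Iglc2 had too few UMIs to pass the filter on low counts, so it was not tested. It stood at 0.209 to 0.623 CPM in control samples and 1.63 to 5.86 CPM in treated samples, without overlap. Cells with at least 3 pDC marker UMIs from at least 2 of these genes, and at most 1 UMI of the T and NK markers, had 689, 954 and 620.3 CPM of Ighm in control samples and 1547, 1608, 1655 and 1444 CPM in treated samples. These levels did not overlap and stood between those of T cells and B cells in every sample. Ighd in the same cells was 9.85 to 23.6 CPM against 18.3 to 28.0 CPM.

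Neutrophils, gated on Csf3r and Cxcr2, had Ighm at 21.2, 11.8 and 10.8 CPM in control samples and 140.1, 230.3, 201 and 169.6 CPM in treated samples. The log2 change was 3.54 (SE 0.29, adjusted p = 4.72e-05), and leaving out cells with pDC markers changed it to 3.6. Of 3 members tested 1 was called higher and 0 lower, beside 24.9% of 7791 genes called higher, 24.5% lower and 49.4% in either direction. The make-up of the samples moved with this difference: B cells were 6.03% to 15.7% of treated cells and 1.04% to 2.88% of control cells. The part of free RNA in the neutrophil value was not tested.

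**Figure D5:**
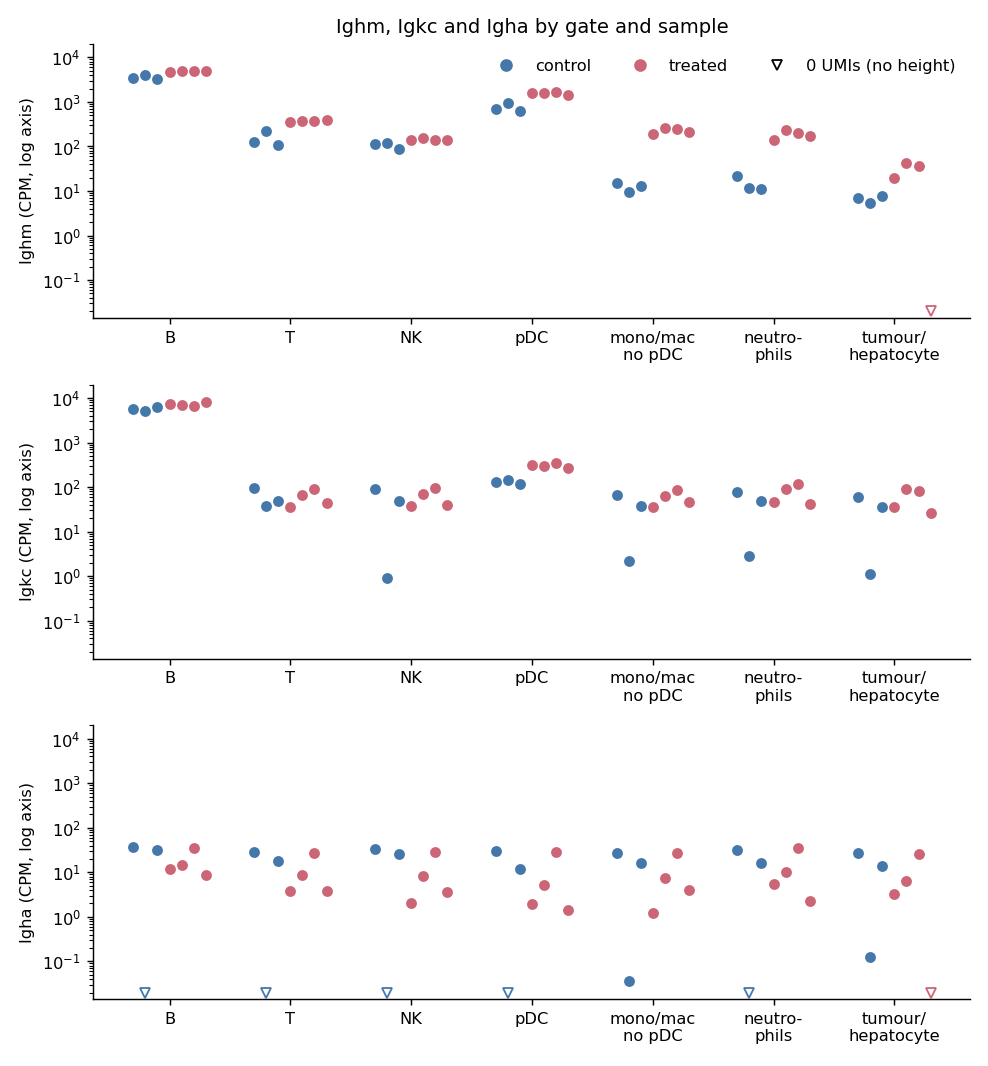
Ighm, Igkc and Igha in CPM (log axes) by gate, 1 point per sample in the order control 1 to 3 and treated 1 to 4; open triangles at the foot mark 0 UMIs and have no height, and the monocyte and macrophage gate is shown without pDC-marked cells. Igkc is lowest in control 2 in the NK, monocyte and macrophage, neutrophil and tumour or hepatocyte gates but not in the T cell and pDC gates, while Ighm is higher in treated than in control samples in every gate shown except for 1 treated sample with 0 UMIs in 15 tumour cells or hepatocytes.

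Ordered by level, Ighm ran the same way in all 4 treated samples from B cells through pDC-marked cells and T cells to the rest, where NK cells, neutrophils, and monocytes and macrophages without pDC markers lay between 139 and 259.9 CPM and neutrophils overlapped each of the other two. In the controls NK cells and T cells overlapped at 85.8 to 217 CPM. Neutrophils and monocytes and macrophages without pDC markers overlapped at 9.27 to 21.2 CPM, and tumour cells and hepatocytes were lowest at 5.44 to 7.89 CPM. Igkc had no such order below B cells and pDC-marked cells: T cells, NK cells, neutrophils and tumour cells and hepatocytes all lay between 26.3 and 119 CPM in every sample other than control 2.

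The genes outside the antibody loci whose level most resembled the sum of the 10 genes, over 41 combinations of 6 gates and the samples with at least 20 cells in each, were Fchsd2 (Spearman rho 0.929), 9930111J21Rik2 (0.918), Stap1 (0.913), Pou2f2 (0.906) and Cd22 (0.903). These points share libraries, so the values are a description. Pou2f2 averaged 725 CPM in B cells, 177 in monocytes and macrophages and 81.3 in T cells, and Cd22 averaged 316 CPM in B cells and at most 8.26 CPM in the other 5 gates.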

How the data were processed

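Single-cell libraries of 7 samples (3 control, 4 treated) were used. The authors deposited filtered matrices of raw UMI counts per gene and cell with no normalization. Cell Ranger 7.0.0 and bcl2fastq 5.0.1 are named in the submitters' processing notes, and the genome build is not given in the sources used here. Total UMIs per sample ran from 37653600 to 181755269.

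Cells were kept from 500 UMIs and 200 genes upward if mitochondrial UMIs were below 20%, and called doublets, 5.81% to 8.51% of passing cells, were removed. B cells needed at least 3 UMIs from at least 2 of 4 B cell genes, under 10 Jchain UMIs and at most 1 UMI of each other lineage list. UMIs were summed per sample and gate for samples with at least 20 cells, filtered with filterByExpr, scaled by TMM and tested with edgeR 4.0.16 (R 4.3.3) by the quasi-likelihood test with Benjamini-Hochberg adjustment over all genes. Per-sample measures were tested by two-sided exact permutation over 35 splits and adjusted over 9 measures. CPM used all UMIs of a gate. Floors are 3 counts and cover counting error only. On simulated B cell counts for 9487 genes, 69% of 2-fold and 96% of 4-fold changes were found, with 9 false calls. The changed genes were drawn only from those with higher expected counts, so these rates do not cover genes with few UMIs.

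All members were named. Of each other list, genes past the threshold were named, up to 4 per direction by fold change, with others given by value; some genes of these lists are not reported here. The members and lists were chosen with earlier results of these data known. Alternatives were DESeq2 1.42.0, other scaling, filters, gates and depths, a replicate block and leaving out each sample. Same-numbered samples did not deviate together (correlations -0.0071 to -0.0058).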

Additional observations from a re-analysis of the deposited data

Results flagged for a closer look

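The difference in Ighm between treated and control samples was not the same in T cells and NK cells. The log2 ratio of Ighm CPM in T cells over NK cells was 0.15, 0.90 and 0.30 in controls 1 to 3 and 1.35, 1.34, 1.42 and 1.52 in treated samples 1 to 4. The treated minus control difference of this ratio was 0.96 (means 0.45 ± 0.40, n = 3, and 1.41 ± 0.082, n = 4). All treated samples lay above all controls (two-sided exact permutation p = 0.0286, the smallest that 35 splits can give). The comparison was chosen after the values were seen. No treated sample stood far from the other 3 in any of 38 checks, which did not take in every gene and gate. In plasma cells Ighg2b was 33686 CPM in treated 3 and 330, 0 and 0 CPM in treated 1, 2 and 4. Leaving out treated 3 made Ighg2b in B cells, and Igha and Ighg2b in T cells, called lower.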

How the results depend on the processing

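Of the members called in B cells, Iglc2 was called under each alternative run. The 3 members called there became 7 with no filter on low counts, 1 with free RNA subtracted, and 1 to 2 with a sample left out. The 1771 genes changed in B cells became 890 with a stricter gate, 2817 with no exclusion by other lineages, 856 after thinning, 1020 with free RNA subtracted, and 1112 (without control 3) to 1810 (without treated 4) with a sample left out.

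In NK cells 1 member was called under median-of-ratios scaling, under DESeq2 and without cells holding a B cell UMI, and 0 to 1 with a sample left out. With a sample left out, 2 to 4 members were called in T cells, 3 in monocytes and macrophages and 1 to 2 in neutrophils (2 without treated 1).

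Members and per-sample measures that changed sign were not called in the main fit. Of the other listed B cell genes, Xbp1, Fkbp11 and Myc were called lower there. They had the opposite sign, without a call, once free RNA was subtracted. The share of class-switched B cells differed by 0.0280 percentage points (treated minus control) with a stricter gate, and the share of antibody UMIs outside B and plasma cells by -6.73 with the wider plasma gate. Igha in B cells reached 0.59 (log2) with a stricter gate. With a sample left out, log2 changes ran from -0.59 to 0.22 for Igkc and -0.27 to 1.58 for Jchain in T cells. In NK cells they ran from -0.33 to 2.24 for Igkc, -0.33 to 2.27 for Jchain, -1.79 to 0.63 for Igha and -1.25 to 2.25 for Ighg2b. Igha in neutrophils ran from -1.51 to 0.49. Ighg2b in NK cells was -0.20 under DESeq2. The cause was not tested.

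Replicate numbers are shared between groups but the samples did not pair by them. With the replicate block, 1634 genes and 2 members were called in B cells: Iglc2, and Ighg2b, lower at adjusted p = 0.000575, while Ighm (0.158) and Ighd (0.285) were not. Log2 changes were -1.17 for Ighg2b in NK cells and 0.52 for Igha in neutrophils. Depth limits the switched genes in B cells, many at under 10 UMIs per sample.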
